A study of Mus musculus with 14 samples.

Results

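Mouse mammary tumours with high levels of a cornified envelope transcript were compared with tumours in which it was low. The sides were set by 1 gene, Sprr2d, which encodes a small proline-rich protein of the squamous cell surface. Tumours T135, T221, T372 and T2023, with a Sprr2d log2 ratio above 3, formed the Sprr2d-high side, and T172, T284, T646 and T920, with a ratio below -2, the Sprr2d-low side. These are 8 of the 12 tumours of the study, measured on 10 of its 14 arrays. The other 4 tumours, T55, T160, T176 and T2134, lay between the thresholds. All 12 tumours came from mice with 1 working copy of Brg1 (genotype Brg1+/-), so both sides share that genotype. Brg1, encoded by Smarca4, is an ATPase of the SWI/SNF complexes that move nucleosomes. The sample names open with the word MIXED, which the labels do not explain. They name no age or treatment and leave unsaid if each tumour had its own animal. The p-values set the difference between the sides against the spread between tumours, and treat the tumours as independent. If tumours shared an animal, the p-values could be too small.

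On every array, Cy5 marked the tumour and Cy3 the reference that all arrays shared. A value is the log2 ratio of tumour over reference, in which a difference of 1 is a 2-fold change. T172 and T284 had 2 arrays each, which were averaged. The second is marked biorep, and the labels do not say what was repeated. The arrays carried 22501 to 22566 of 22575 probes, and their medians lay between 0 and 0.018. T172 and T284 resembled each other. Their profiles, each the mean of 2 arrays, correlated across genes at 0.626 after each gene's mean was removed. The other pairs within a side reached at most 0.389, and the middle tumours T55 and T160, on 1 array each, 0.439. Arrays of T172 against arrays of T284 gave 0.433 to 0.616, and the 2 arrays under 1 tumour name 0.703 and 0.709. Genes are not independent replicates, and counts of calls are also given without both T172 and T284.

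In stratified squamous epithelium, basal cells hold the transcription factor p63 and the keratins Krt5 and Krt14. As cells move up they exchange these for suprabasal keratins and then build a cornified envelope, a shell of cross-linked proteins such as loricrin, involucrin and the small proline-rich proteins. Proteases and their inhibitors control the shedding of the dead cells, and lipids seal the spaces between them. The mammary gland has no cornified layer, but its basal (myoepithelial) cells also hold p63, Krt5 and Krt14, and mammary tumours can contain squamous areas.

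In every list of values below, the first 4 are those of T135, T221, T372 and T2023 and the last 4 those of T172, T284, T646 and T920. Sprr2d, which chose the sides, stood at log2 ratios of 3.85, 3.42, 4.20 and 3.81 against -3.32, -3.16, -2.36 and -3.32. The members nearest the thresholds were T221 at 3.42 and T646 at -2.36, and the tumours just outside them were T2134 at 2.29 and T55 at -1.34. Krt14, the basal keratin, read 2.79, 2.17, 1.84 and 2.93 against -2.60, -2.35, -2.04 and -1.44, so the sides did not overlap. Its difference was 4.54 ± 0.32 (SE, n = 4 tumours per side; limma adjusted p = 0.000123). Trp63, which encodes p63, read 2.41, 3.57, 2.17 and 3.21 against -3.15, -2.63, -2.96 and 1.89. T920 thus lay near the lowest Sprr2d-high tumour, although its Krt14 was low. The Trp63 difference of 4.55 ± 1.0 passed the test (limma adjusted p = 0.0496), but the call was lost without any 1 tumour other than T920, with an adjusted p of up to 0.154. Trp63 in T920 goes against a plain squamous label for one side only, and the sides are therefore called by Sprr2d. In bulk tumour RNA, fewer cells of a type and less RNA per cell cannot be told apart.

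**Figure D1:**
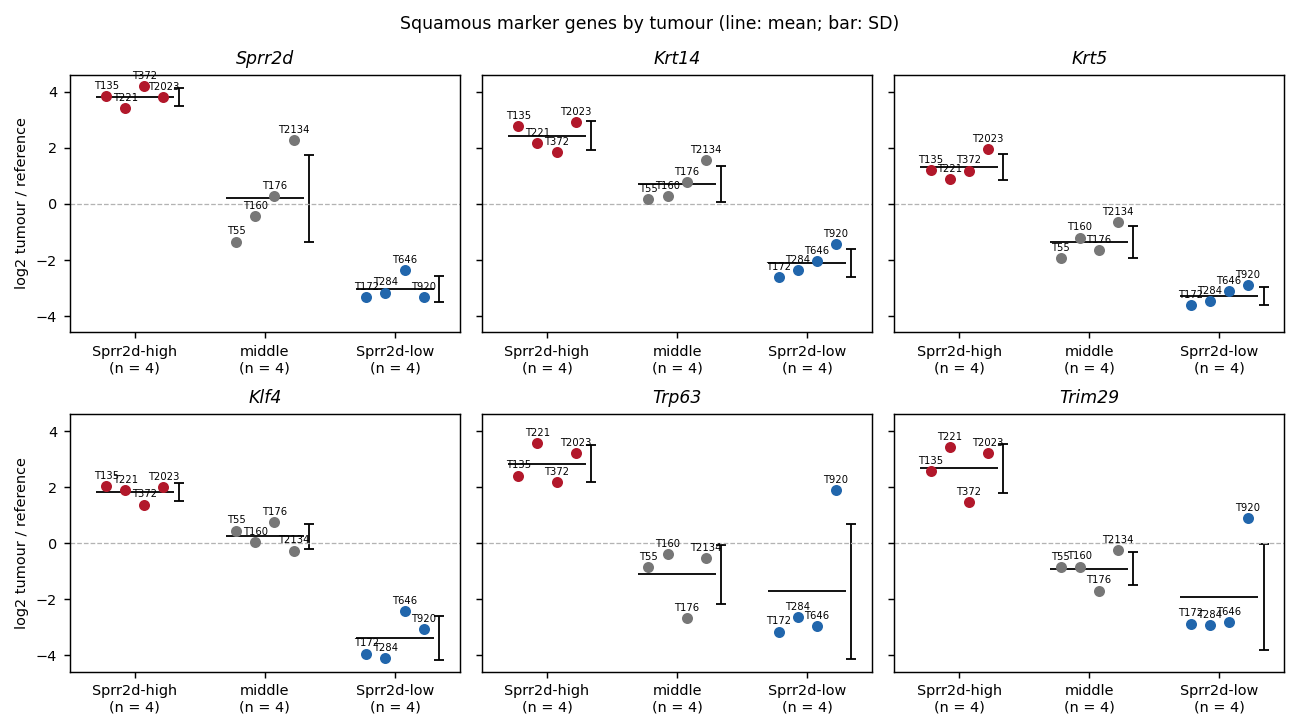
Log2 tumour over reference (vertical axis) of Sprr2d, Krt14, Krt5, Klf4, Trp63 and Trim29 in each tumour, grouped by side; points are tumours, lines means and bars SDs over 4 tumours. Krt14, Krt5 and Klf4 separate the sides, while T920 sits at 1.89 for Trp63 and 0.91 for Trim29, away from the other Sprr2d-low tumours.

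Across 16878 genes other than Sprr2d, 429 (2.54%) were called by limma at an adjusted p under 0.05. Of these, 266 (1.58% of genes tested) were higher and 163 (0.966%) lower in the Sprr2d-high tumours. Because the sides were chosen on 1 gene of the same arrays, these p-values test association with the Sprr2d side and nothing wider. Over all genes tested the median difference was 0.00. At an unadjusted p under 0.05 by limma there were 1535 higher and 1574 lower genes, the background for such counts in the lists below. The higher calls were larger, with a median difference of 2.48 and 177 genes at 2 or more, against -1.56 and 40 genes at -2 or less among the lower calls. In 111 of the 266 higher genes, every Sprr2d-high tumour was above the reference and every Sprr2d-low tumour below it, and in 49 of the 163 lower genes the reverse held. The sides overlapped in 1 of the 429 called genes, the chemokine Ccl6, while 10.3% of all genes tested had sides that did not overlap (5.04% higher and 5.27% lower).

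The counts moved with single tumours. Without T172 the fit called 105 higher and 22 lower, without T284 109 and 23, and without T2023 127 and 27. Without T221 it called 183 and 48, without T372 211 and 91, without T135 287 and 148, and without T920 277 and 251. Leaving out T646 raised the counts to 609 and 445. Without both T172 and T284, which left 2 tumours on the low side, 53 genes were called higher and 4 lower, of which 52 and 4 were among the genes called with all 8. Of the 69 called genes named under the rule given in the methods, 41 were called in each of the 8 fits that left out 1 tumour.

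**Figure D2:**
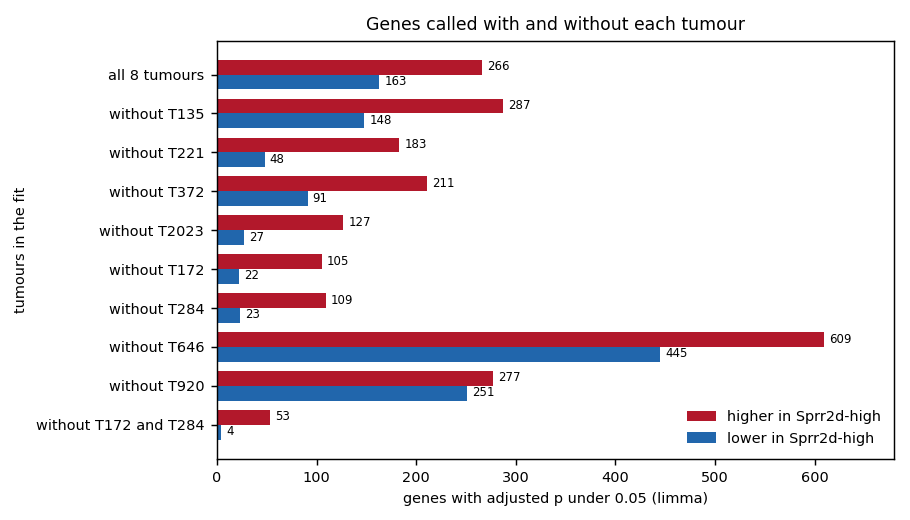
Number of genes with a limma adjusted p under 0.05 (horizontal axis) in fits with all 8 tumours, without each tumour and without T172 and T284 together; red bars are genes higher and blue bars genes lower in the Sprr2d-high tumours. Counts run from 53 to 609 for higher and from 4 to 445 for lower genes.

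The cornified envelope and epidermal differentiation genes are the programme to which Sprr2d belongs, so they entered the fit and its counts, 43 of the 266 higher genes coming from it and the next 2 lists, but are described without its p-values. Of 47 measured members besides Sprr2d, 47 had a positive difference, with a median of 3.38. In 33 of them every Sprr2d-high tumour exceeded every Sprr2d-low tumour, a pattern found in 5.04% of all genes tested. The mean over the members ran from 0.12 in T135 to 1.7 in T221 on the high side, and from -2.46 in T920 to -1.88 in T646 on the low side. The largest difference in the data was that of Crct1, a cysteine-rich protein gene of the complex, at 0.62, 2.31, 2.65 and 2.27 against -5.19, -4.96, -4.26 and -5.44. Calm4, a calmodulin-like gene of skin, read 1.47, 2.88, 1.70 and 2.74 against -4.69, -4.44, -4.20 and -5.33. Cornifelin (Cnfn), a cornified envelope protein, read 3.44, 3.77, 2.70 and 3.45 against -2.82, -3.30, -2.65 and -3.23. In these 3 genes the lowest Sprr2d-high tumour was 4.89, 5.68 and 5.35 log2 units above the highest Sprr2d-low tumour, and the middle tumours lay between the sides.

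Repetin (Rptn), an envelope precursor of the fused S100 family, spread more widely among the high tumours, at 2.08, 6.08, 4.44 and 3.09 against -2.69, -2.64, -2.15 and -2.72. Kprp, the keratinocyte proline-rich protein, read -1.50, 2.02, -0.22 and 1.39 against -6.07, -5.34, -5.62 and -6.31. T135 was the lowest high tumour for both. Krtdap, a keratinocyte differentiation gene, read 1.73, 3.57, 2.52 and 2.63 against -4.17, -3.81, -2.77 and -4.36, and Sprr2h read 2.24, 4.42, 3.97 and 3.92 against -2.36, -2.59, -1.56 and -2.05. Filaggrin (Flg), which bundles keratin filaments, differed by 4.04, involucrin (Ivl) by 2.12 and the cross-linking transglutaminase Tgm1 by 1.91. Loricrin (Lor) differed by 3.38, but its sides overlapped. The Sprr2 and late cornified envelope (Lce) genes are near-identical families, and a probe may read more than 1 of them, so values of single members are uncertain.

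Suprabasal and stress keratins were likewise only described: 12 of 13 had a positive difference, with a median of 2.13. Krt16, a keratin of activated epidermis, read 3.49, 3.92, 4.64 and 4.25 against -1.11, -1.17, 0.03 and -1.44. Krt80 read 2.63, 2.55, 2.93 and 3.70 against -2.32, -1.79, -1.6 and -1.23. Krt17, another keratin of activated epidermis, read 2.02, 2.16, 1.62 and 2.73 against -2.40, -2.48, -1.98 and -1.64. These 3 keratins separated the sides with little spread, whereas Krt10, the main suprabasal keratin, read -0.49, 0.22, -3.26 and 1.25 against -4.73, -4.25, -4.45 and -5.83. T372 was thus only 0.99 above the highest Sprr2d-low tumour for Krt10. Krt1, its partner, differed by 2.13. Krt76 went the other way, with a difference of -1.74 and overlapping sides.

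Among proteases and inhibitors of the cornified layer, also only described, 21 of 24 differences were positive, with a median of 2.42. Klk7, a kallikrein that cleaves the bonds between dead cells, read 0.53, 1.31, 3.49 and 3.14 against -5.26, -4.81, -3.02 and -3.97. Its inhibitor Spink5 read 2.35, 4.86, 3.30 and 3.32 against -1.46, -1.78, -2.41 and -2.28. Asprv1, a protease that processes filaggrin, read 1.01, 1.06, 2.04 and 1.69 against -3.48, -4.54, -3.49 and -3.50. Serpinb2, a serine protease inhibitor, read 1.87, 3.82, 2.86 and 2.44 against -2.88, -2.35, -1.81 and -2.48. In all 4 genes the sides did not overlap. The membrane proteases St14 and Prss8 differed by -0.18 and -0.05, and their sides overlapped.

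RefSeq promoter windows (GRCm38.p6), the 250 bases before the start site, existed for 48 of the 69 named called genes. They were searched on both strands for 3 sets of letters: TATAAA (the TATA box), TGANTCA (the AP-1 factors Fos and Jun) and CCACACCC (Krüppel-like factors). The windows of Sprr2h, Rptn, Krtdap and Serpinb2 held both of the first pair, and are printed because they show how such matches lie in genes of the cornified programme. They were chosen after the matches were seen. Capitals mark the matches.
Sprr2h, chr3:92385435-92385684, plus strand: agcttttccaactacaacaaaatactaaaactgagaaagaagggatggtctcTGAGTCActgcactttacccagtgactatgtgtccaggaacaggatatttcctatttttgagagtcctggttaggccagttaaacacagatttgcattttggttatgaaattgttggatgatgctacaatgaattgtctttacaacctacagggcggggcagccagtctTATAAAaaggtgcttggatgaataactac
Rptn, chr3:93393449-93393698, plus strand: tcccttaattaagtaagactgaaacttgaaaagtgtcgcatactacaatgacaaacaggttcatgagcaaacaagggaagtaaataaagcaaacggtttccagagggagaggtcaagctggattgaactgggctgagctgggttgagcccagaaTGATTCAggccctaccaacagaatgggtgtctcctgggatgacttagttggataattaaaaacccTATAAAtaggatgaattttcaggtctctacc
Krtdap, chr7:30787655-30787904, plus strand: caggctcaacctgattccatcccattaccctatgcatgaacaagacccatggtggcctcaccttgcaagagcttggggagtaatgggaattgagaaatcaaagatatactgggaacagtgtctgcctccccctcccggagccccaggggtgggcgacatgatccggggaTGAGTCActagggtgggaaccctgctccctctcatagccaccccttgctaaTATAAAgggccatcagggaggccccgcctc
Serpinb2, chr1:107511173-107511422, plus strand: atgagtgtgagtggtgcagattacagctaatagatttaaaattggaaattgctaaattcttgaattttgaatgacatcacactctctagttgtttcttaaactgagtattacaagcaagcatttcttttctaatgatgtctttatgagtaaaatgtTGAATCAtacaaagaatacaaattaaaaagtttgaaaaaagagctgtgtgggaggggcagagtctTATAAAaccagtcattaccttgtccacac

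The TATAAA match began 29 bases before the start site of the printed window in Sprr2h and Serpinb2, 30 in Krtdap and 31 in Rptn. Serpinb2 has 2 windows. The one not printed, chr1:107511260-107511509, has another start site, to which the offsets given here do not apply. The AP-1 letters began 198, 96, 81 and 94 bases before it in Sprr2h, Rptn, Krtdap and Serpinb2. Over all 32851 windows, 6.75% held the AP-1 letters, against 12.0% of 233 windows of genes called higher and 4.57% of 175 windows of genes called lower. The TATA letters were in 12.4% of all windows, in 12.4% for genes called higher and in 5.14% for genes called lower. For CCACACCC the shares were 3.20%, 5.58% and 5.71%. Windows of 1 gene can overlap, the matches are descriptions of letters, and no test was made.

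Outside these 3 lists, 223 of 16794 genes (1.33%) were called higher. Of 22 measured basal epithelial genes outside them, 7 were called higher and 0 lower, with a median difference of 1.69 against 0.00 over all genes. Krt5, the keratin partner of Krt14, read 1.21, 0.89, 1.19 and 1.96 against -3.61, -3.47, -3.12 and -2.90, a difference of 4.59 ± 0.27 (limma adjusted p = 4.93e-05). It separated the sides by more than any spread within them. Trim29, a p63-associated gene, read 2.57, 3.42, 1.48 and 3.23 against -2.87, -2.92, -2.80 and 0.91 (difference 4.59 ± 0.84, limma adjusted p = 0.0234). T920 was again the exception on its side, and the Trim29 call was lost without T172, T284, T221 or T2023 (adjusted p up to 0.0835). Also called were Col17a1, the hemidesmosome collagen (3.45), Sfn, the epithelial 14-3-3 protein (2.92), and Bnc1, a basal zinc finger factor (1.97; not called without T172, T2023, T221, T284 or T372). Not called were Lamb3 (2.13), Itgb4 (0.82) and Itga6 (-0.68), which encode parts of the basement membrane anchor. The 22 genes had 4 calls without T172, without T284 or without T2023, 12 higher and 1 lower without T920, and 3 without T172 and T284 together, Krt5 and Krt14 among them.

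Desmosomes join neighbouring keratinocytes. Of 14 measured members, 5 were called higher and 0 lower (1.58% and 0.966% of all genes tested), with a median of 0.84. Dsc1, the cadherin of upper layers, read 0.95, 4.84, 4.05 and 2.33 against -2.58, -1.83, -1.36 and -1.19 (difference 4.78 ± 0.75, limma adjusted p = 0.0139). The high tumours differed widely among themselves, and the Dsc1 call was lost without T172 or T284 (adjusted p up to 0.0531). Perp, a p63 target of the desmosome, differed by 2.43 ± 0.32 (limma adjusted p = 0.00573) and desmoplakin (Dsp), the mean of probes at 1.36 and 2.94, by 2.15 ± 0.30 (limma adjusted p = 0.00734). Dsg3, the basal desmosomal cadherin, differed by 1.76 ± 0.33, and its call was lost without T135, T172, T2023, T221 or T284 (adjusted p up to 0.0895). Pkp3 was called at 1.15, but not without T172, T2023, T221, T284, T372 or T920. The cadherin of simple epithelia, Dsg2, and its plakophilin partner Pkp2 differed by -0.44 and -1.33 and were not called. Without T172 or without T284, 2 members were called, without T2023 or without T221, 3 were, and without T646 6 were called higher and 1 lower. Leaving out both T172 and T284 left Perp and Dsp (limma adjusted p = 0.0254 and 0.0333).

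Genes of the epidermal lipid barrier gave 6 calls of 22, all higher, against 1.58% higher over all genes tested, with a median of 0.90. There were 10 calls without T135 and 2 without T172 and T284 together, where Elovl4 and Alox12e were called and Lipm and Sdr9c7 were not (limma adjusted p = 0.0736 and 0.101). Elovl4, which makes the very long fatty acids of skin ceramides, read 0.80, 2.34, 1.6 and 2.29 against -3.05, -2.88, -2.91 and -2.25, a difference of 4.53 ± 0.35 (limma adjusted p = 0.000192). The acid lipase gene Lipm differed by 3.97 ± 0.48, the epidermal lipoxygenase Alox12e by 3.30 ± 0.37 and the dehydrogenase Sdr9c7 by 2.83 ± 0.37 (limma adjusted p = 0.003, 0.00224 and 0.00548). Alox12e was also high in the middle tumours T55 (2.52) and T2134 (2.11), within the range of the Sprr2d-high side. The lipoxygenase Alox12b (-0.07), the lipid transporter Abca12 (0.19) and the ceramide glucosyltransferase Ugcg (1.03) were not called.

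Of 24 measured epidermal transcription factors, 5 were called higher and 1 lower (1.58% and 0.966% of all genes tested), with a median of 0.97. Klf4, a Krüppel-like factor needed for the skin barrier, read 2.05, 1.89, 1.38 and 2.0 against -3.94, -4.10, -2.43 and -3.05, a difference of 5.21 ± 0.37 (limma adjusted p = 0.000123). Its 4 middle values, from -0.26 to 0.75, lay between the sides. Hopx, a homeodomain protein without DNA contact, differed by 3.38 ± 0.44 (limma adjusted p = 0.00471) and Klf5 by 1.76 (not called without T135, T172, T2023, T284 or T372). Pou3f1 differed by 2.94 ± 0.62, with its call lost without T172, T2023, T221, T284, T372 or T920 (adjusted p up to 0.129). Ovol1, a zinc finger repressor, differed by 2.33 ± 0.38, with its call lost without T172, T2023 or T284 (adjusted p up to 0.0607). The called lower factor was Tfap2c (-1.32), an AP-2 factor of mammary luminal cells, whose call was lost without any 1 tumour other than T646. Its relatives Tfap2a (-0.13) and Tfap2b (2.31), and the epidermal factors Grhl2 (-0.20), Dlx3 (0.19) and Vdr (-0.10), were not called. The higher calls numbered 2 without T172, T284 or T2023, 8 without T646, and 1, Klf4, without T172 and T284 together.

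**Figure D3:**
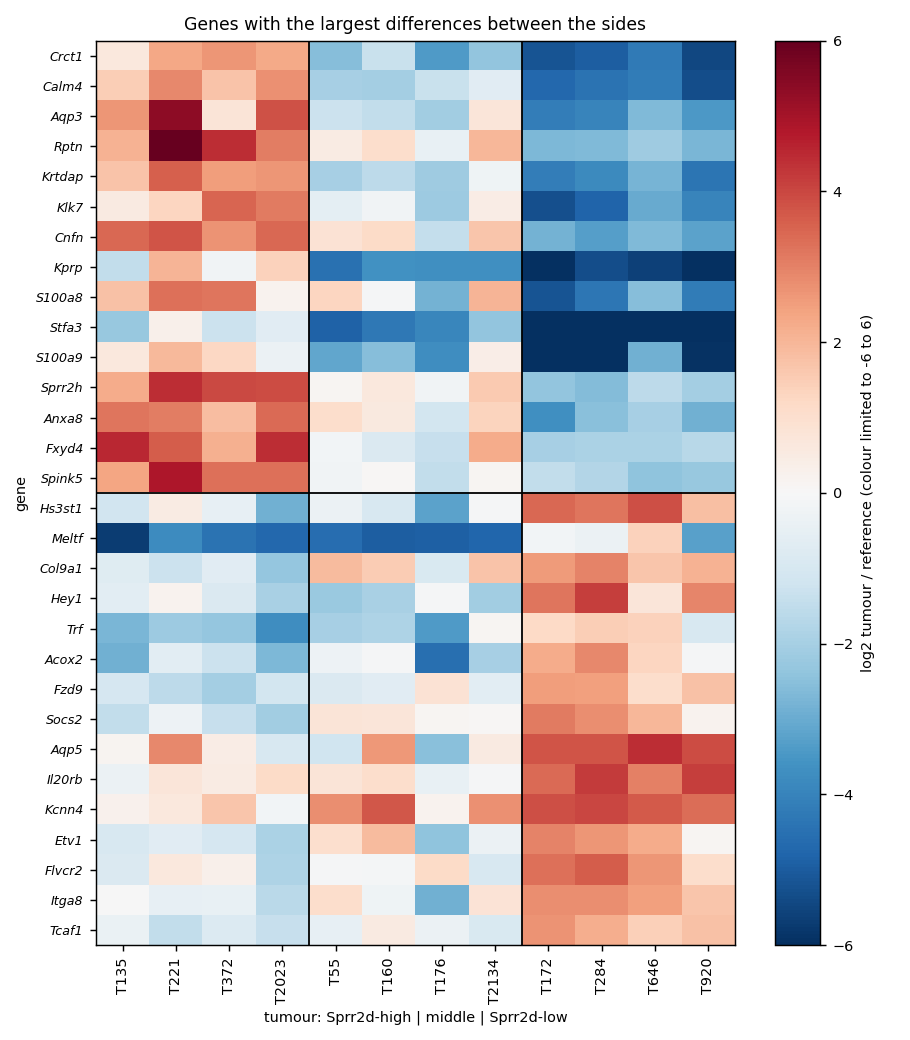
Log2 tumour over reference (colour, limited to -6 to 6) of the 15 largest higher and 15 largest lower called genes with sides that do not overlap (rows) in the 12 tumours (columns, ordered by side). Genes were selected on this difference, so the contrast between the outer columns is a description; the middle tumours show intermediate colours for most of the upper rows.

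Alarmins and epithelial inflammation genes gave 13 calls of 28, all higher, against 1.58% higher over all genes tested, with a median of 1.64. S100a8, a subunit of calprotectin, read 1.78, 3.31, 3.20 and 0.23 against -5.18, -4.34, -2.55 and -4.19 (difference 6.19 ± 0.74, limma adjusted p = 0.00295). Its partner S100a9 read 0.64, 1.94, 1.24 and -0.34 against -6.16, -6.31, -2.86 and -5.91 (difference 6.18 ± 0.77, limma adjusted p = 0.00377). For both, T2023 was the lowest high tumour and T646 the highest low one. Stfa3 and Stfa2, stefin A inhibitors of cysteine proteases, differed by 6.19 ± 0.63 and 5.02 ± 0.63 (limma adjusted p = 0.00125 and 0.00376). These stefins are near-identical genes, so a probe may read several. S100a8 and S100a9 lie on chromosome 3, as Sprr2h does, and Stfa2 and Stfa3 lie near Cstdc4, a gene of the described protease list. The p-values of these genes therefore test association with the Sprr2d side and are not evidence separate from the choice of sides. The defensin genes Defb1 (4.86), Defb4 (3.45) and Defb3 (2.09), the epithelial interleukin-36 genes Il1f6 (4.62), Il1f9 (3.90) and Il1f8 (2.11), Saa3 (3.38), Il18 (1.97) and Ccl20 (1.64) were called as well. Not called were Il1b (1.77), Il1a (0.82), Cxcl1 (-0.03) and Lcn2 (-1.15). Without T172 or without T284 there were 7 calls, and without T2023 8. With both T172 and T284 left out there were 2, and S100a8, S100a9 and Stfa2 were not called (limma adjusted p = 0.0691, 0.0736 and 0.0847).

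S100a8, S100a9, Ltf and Mmp9 are also neutrophil genes, and they were the 4 called members of 13 neutrophil markers measured. All 4 were called higher, as were 1.58% of all genes tested. The other 9 were not called: Chil3 (1.09), Cxcr2 (0.95), Camp (0.84), Mmp8 (0.76), Csf3r (0.60), Ngp (0.55), Mpo (0.38), Elane (-0.25) and Lcn2 (-1.15). The mean of the neutrophil list, which includes the 4 called genes, ran from -0.93 to 0.36 on the high side. On the low side it ran from -2.50 to -1.25. The part of neutrophils in the S100a8 and S100a9 difference was not tested. Without T172, T284, T221 or T372 the list had 2 calls, and without T172 and T284 together 0. Lactoferrin (Ltf), also a luminal progenitor gene, read 4.84, 2.98, 4.30 and 2.07 against -0.85, -2.10, -1.90 and 1.26 (difference 4.44 ± 0.80, limma adjusted p = 0.0229). T920 came within 0.80 of T2023 for this gene, and the call was lost without T172, T221, T284 or T372 (adjusted p up to 0.0778). Mmp9, a gelatinase, differed by 2.08 ± 0.39, and lost its call without T172, T2023, T221, T284, T372 or T920 (adjusted p up to 0.0911).

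Among the 15 largest higher differences, 3 belonged to genes of no list, Aqp3, Anxa8 and Fxyd4. Aqp3, the water and glycerol channel of epidermis, read 2.66, 5.37, 0.78 and 3.84 against -4.14, -3.96, -2.64 and -3.44 (difference 6.71 ± 0.83, limma adjusted p = 0.00358). T372 was lowest on the high side but lay 3.42 above the highest low tumour. Annexin A8 (Anxa8), measured by 10 probes, read 3.20, 3.07, 1.86 and 3.39 against -3.69, -2.50, -2.0 and -2.90 (difference 5.65 ± 0.42, limma adjusted p = 0.000155). Fxyd4, a regulator of the sodium pump, read 4.50, 3.63, 2.11 and 4.45 against -2.0, -1.92, -1.90 and -1.68 (difference 5.54 ± 0.47, limma adjusted p = 0.000336). Its 4 low tumours ranged over 0.31 and its 4 high tumours over 2.39. With both T172 and T284 left out, Aqp3 was not called (limma adjusted p = 0.0889), while Anxa8 and Fxyd4 were.

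Some called genes were neighbours in the genome. Called genes with at most 5 other protein-coding genes between them in the RefSeq order were joined, and runs of 3 or more were kept. In this way 46 of 263 placed higher genes fell into 10 runs, and 3 of 162 placed lower genes into 1. How many runs other genes would give was not tested. The longest run had 17 called among 29 tested genes of the epidermal differentiation complex, from Sprr2h to S100a10. A run begins and ends with a called gene, so its count of tested genes leaves out uncalled genes beyond its ends. In an interleukin-1 family cluster, the 4 tested genes Il1f8, Il1f9, Il1f6 and Il1f5 formed a run. The 4 tested genes from Cstdc4 to Stfa3 formed another. The interleukin-1 family members Il1f10 (1.09) and Il1rn (0.61) were not called. Other runs were Krt14, Krt16 and Krt17 (3 tested genes in the span) and Krt6b, Krt5 and Krt1 (5 tested). Sbsn, Dmkn and Krtdap (3 tested) and Klk12, Klk7 and Klk5 (8 tested) also formed runs. The remaining higher runs held beta-defensins (Defb4, Defb6, Defb3; 4 tested), Calml3, Calm4 and Akr1c18 (6 tested), and Foxf2, Serpinb1a and Serpinb1b (10 tested). The lower run was Cmas, Etnk1 and Sox5 (5 tested). Many of these genes belong to the 3 lists that are only described, so the runs are a description. Runs of related genes can also come from probes that read more than 1 family member.

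Signalling lists gave 0 to 2 higher and 0 or 1 lower calls each. Of all genes tested, 1.58% were called higher and 0.966% lower. In the Wnt pathway list, 2 of 37 were called higher and 0 lower, with a median of 0.52. The list does not hold the Wnt receptor Fzd9, which was called lower (-3.38) and is described below. The ligand Wnt10a read 1.31, 2.32, 2.22 and 2.55 against -1.96, -1.92, -0.61 and -1.54 (difference 3.60 ± 0.36, limma adjusted p = 0.0011). The secreted inhibitor Wif1 read 3.14, -0.53, 1.05 and 2.14 against -3.78, -4.21, -2.69 and -0.86 (difference 4.34 ± 0.87, limma adjusted p = 0.0341). The sides were only 0.33 apart at T221 and T920 for Wif1, and its call was lost without T135, T172, T2023, T284 or T372 (adjusted p up to 0.11). Sostdc1, a secreted Wnt and BMP antagonist, had the largest difference of the list (4.80) but was not called, and the target gene Axin2 differed by 0.33. Without T172, T284, T2023 or T135 the Wnt list had 1 call, without T646 5, and without T920 3 higher and 1 lower. With both T172 and T284 left out, Wnt10a was the 1 call of the list (limma adjusted p = 0.0306).

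Notch pathway calls went both ways, with 2 of 22 higher and 1 lower (1.58% and 0.966% of all genes tested) and a median of 0.22. The feedback gene Nrarp differed by 2.31 ± 0.38 (limma adjusted p = 0.016, up to 0.0613 and not called without T172, T2023 or T284) and Dtx1 by 1.19 ± 0.25 (limma adjusted p = 0.0386). The Dtx1 call was lost without T135, T172, T2023, T284 or T372, with an adjusted p up to 0.133. Hey1, a Notch target repressor, read -0.61, 0.19, -0.86 and -1.94 against 3.20, 4.13, 0.74 and 2.91 (difference -3.55 ± 0.69, limma adjusted p = 0.0295). T646 was close to T221, and the Hey1 call was lost without T135, T172, T2023, T284, T372 or T920 (adjusted p up to 0.0922). The receptors Notch1 (1.01), Notch2 (0.05) and Notch3 (0.54) and the target Hes1 (-0.11) were not called. Without T172, T284 or T2023, or without T172 and T284 together, the pathway had 0 calls.

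Retinoid genes gave 2 higher calls of 20, against 1.58% higher over all genes tested, and a median of 0.31. They were the binding proteins Rbp2 (2.06 ± 0.40, limma adjusted p = 0.029) and Crabp2 (1.21 ± 0.23, limma adjusted p = 0.0299). Rbp2 lost its call without T172, T2023, T221, T284, T372 or T920 (adjusted p up to 0.0982) and Crabp2 without any 1 tumour other than T646 (adjusted p up to 0.082). The list had 0 calls without T172 and T284 together. Limma called 0 of 14 EGF receptor family genes, 3 of which had an unadjusted p under 0.05, and the median was 0.03. The ligand Epgn differed by 2.18 ± 0.59 (limma adjusted p = 0.0957) and the inhibitor Errfi1 by -1.33 ± 0.31 (limma adjusted p = 0.0589). Without T135 or T646, 1 gene of this family was called higher, and without T920 1 lower. Among hypoxia genes 1 of 16 was called, Ndrg1 (2.18 ± 0.46, limma adjusted p = 0.0409), and among immediate early genes 1 of 17, the phosphatase Dusp1 (0.90 ± 0.18, limma adjusted p = 0.0328). Ndrg1 was lost without T172, T221, T284, T372 or T920 (adjusted p up to 0.109) and Dusp1 without T172, T2023, T221, T284 or T372 (adjusted p up to 0.12). Neither was called without T172 and T284 together.

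**Figure D4:**
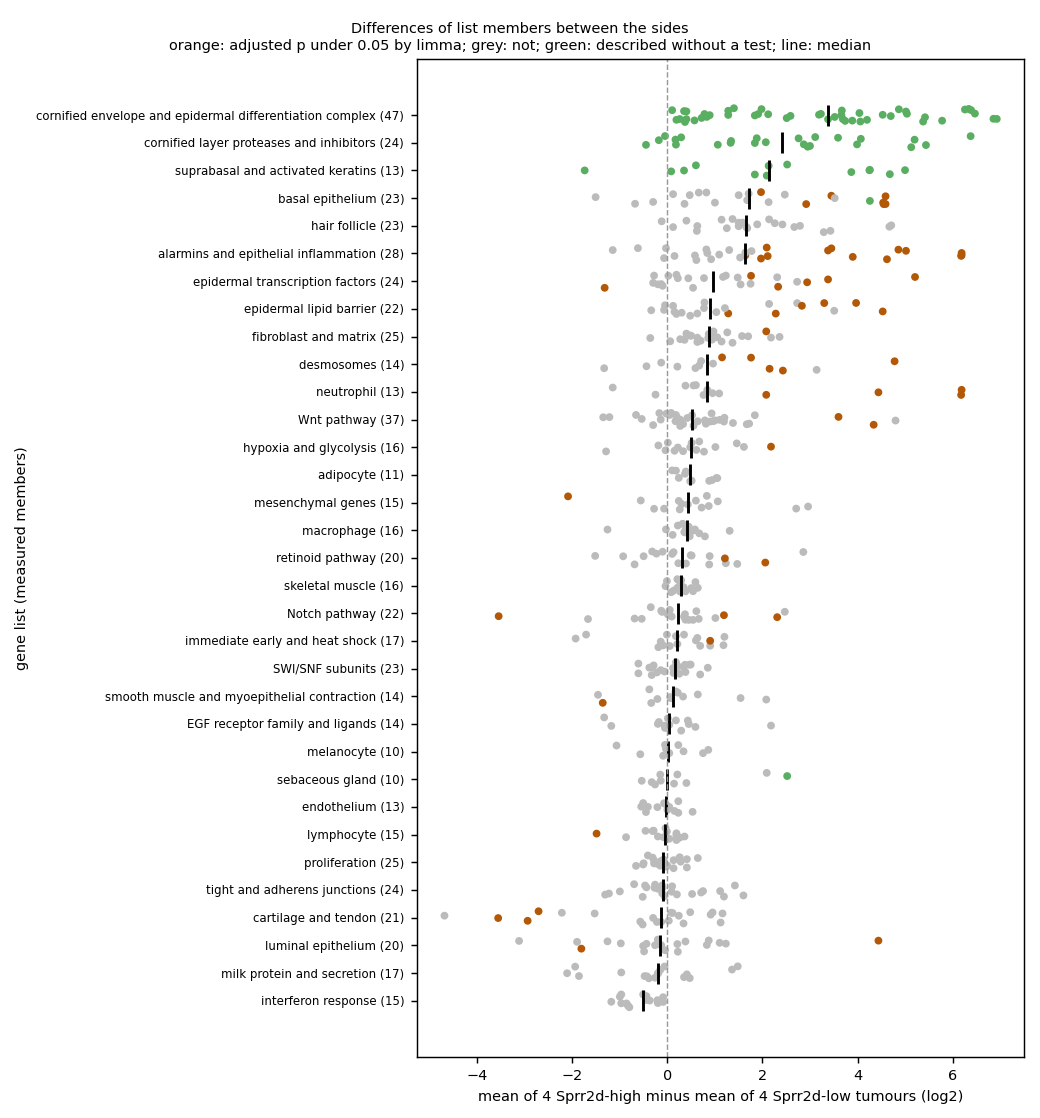
Difference between the mean of 4 Sprr2d-high and the mean of 4 Sprr2d-low tumours in log2 units (horizontal axis) for each measured member (points) of 33 gene lists; the line is the list's median and colours give the call. The cornified envelope list has the highest median (3.38), its median and those of the 2 other green lists being described without p-values, and interferon genes the lowest (-0.51).

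Genes lower in the Sprr2d-high tumours included receptors, channels and matrix genes. Fzd9, a Wnt receptor, read -1.02, -1.56, -2.05 and -1.09 against 2.53, 2.46, 1.06 and 1.75, a difference of -3.38 ± 0.37 (limma adjusted p = 0.00178). Il20rb, a receptor chain for interleukin-20 cytokines, read -0.37, 0.71, 0.48 and 1.14 against 3.41, 4.20, 3.02 and 4.15 (difference -3.21 ± 0.37, limma adjusted p = 0.00256). The potassium channel Kcnn4 read 0.24, 0.61, 1.66 and -0.18 against 3.89, 4.0, 3.68 and 3.35 (difference -3.15 ± 0.37, limma adjusted p = 0.00256). The Sprr2d-low tumours ranged over 1.47, 1.18 and 0.65 in these 3 genes. The middle tumours were not alike, since Kcnn4 was 2.81, 3.72, 0.23 and 2.75 in T55, T160, T176 and T2134, whereas Fzd9 was -0.89, -0.68, 0.87 and -0.61. Itga8, an integrin chain, differed by -3.07 ± 0.37 and Tcaf1, a regulator of TRP channels, by -3.03 ± 0.33 (limma adjusted p = 0.0033 and 0.00187). These 5 genes were called without each tumour in turn. With both T172 and T284 left out, Fzd9 and Tcaf1 were called, and Il20rb, Kcnn4 and Itga8 were not (limma adjusted p = 0.0548, 0.0733 and 0.0793).

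Larger but less steady differences were those of Hs3st1, a heparan sulfate sulfotransferase (-4.11 ± 0.69, limma adjusted p = 0.0183), and Meltf, melanotransferrin (-4.04 ± 0.84, limma adjusted p = 0.04). Hs3st1 read -1.17, 0.48, -0.51 and -2.90 against 3.44, 3.22, 3.87 and 1.79. Meltf read -5.69, -3.79, -4.42 and -4.71 against -0.16, -0.36, 1.36 and -3.28, so T920 was only 0.51 above T221. Transferrin (Trf) was also lowest in T920 on its side (-0.96, against 1.20 to 1.46) and differed by -3.51 ± 0.56 (limma adjusted p = 0.0145). Hs3st1 and Trf lost their calls without T172 or T284 (adjusted p up to 0.0632 and 0.0557), and Meltf without T135, T172, T2023, T221, T284 or T372 (up to 0.124). Socs2, a suppressor of cytokine signals, differed by -3.35 ± 0.61, the water channel Aqp5 by -3.34 ± 0.67, the ETS factor Etv1 by -3.13 ± 0.57 and Flvcr2 by -3.11 ± 0.66. Each of these 4 was lost without T172, T2023, T284 or T372, Socs2 and Aqp5 also without T135, Aqp5 without T920, Etv1 without T221, and Flvcr2 without T135 or T221. Their highest adjusted p was 0.133.

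Acox2, a peroxisomal oxidase of bile acid and branched fatty acid breakdown, read -2.88, -0.63, -1.30 and -2.68 against 2.23, 2.87, 1.30 and -0.08 (difference -3.45 ± 0.68, limma adjusted p = 0.0322). T920 was 0.55 above T221, and the call was lost without T135, T172, T2023, T284 or T372 (adjusted p up to 0.102). Of its 2 windows, 1 is printed because it also holds the AP-1 letters, in a gene that was lower rather than higher. They begin 11 bases before the start site of the printed window. The other window, chr14:8258840-8259089, has another start site, to which this offset does not apply.
Acox2, chr14:8259020-8259269, minus strand: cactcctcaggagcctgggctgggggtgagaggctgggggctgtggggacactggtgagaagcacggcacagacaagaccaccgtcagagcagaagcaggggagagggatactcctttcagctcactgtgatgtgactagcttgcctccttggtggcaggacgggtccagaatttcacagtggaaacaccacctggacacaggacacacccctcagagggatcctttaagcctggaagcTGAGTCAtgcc

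Of 21 cartilage and tendon genes, 3 were called lower and 0 higher (0.966% and 1.58% of all genes tested), with a median of -0.13. Col9a1, a collagen IX chain, read -0.74, -1.27, -0.66 and -2.31 against 2.56, 2.97, 1.67 and 2.09 (difference -3.56 ± 0.41, limma adjusted p = 0.00233). Its partner chain Col9a2 read -0.02, -0.93, 0.08 and -0.50 against 2.53, 3.35, 2.87 and 1.65 (difference -2.94 ± 0.37, limma adjusted p = 0.00398), and the factor Sox5 differed by -2.71 ± 0.44 (limma adjusted p = 0.0157). Both collagen IX chains separated the sides, but in 3 middle tumours Col9a1 was 1.51 to 1.92 and Col9a2 -1.06 to 0.23. The third chain, Col9a3, differed by -0.52, and the cartilage genes Col2a1 (0.95), Acan (-0.22) and Comp (-4.69) were not called. Sox5 was lost without T172, T2023 or T284 (adjusted p up to 0.0567), which left 2 calls, and without T920 there were 5. With both T172 and T284 left out there were 0, with Col9a1 at a limma adjusted p of 0.0548 and Col9a2 at 0.0733.

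Foxc2, a forkhead factor of mesenchyme and lymphatic vessels, had the smallest SE among the lower genes named, and read -1.48, -1.24, -1.36 and -1.58 against 0.64, 0.75, 0.96 and 0.36. It differed by -2.09 ± 0.19 (limma adjusted p = 0.000449), was called without each tumour in turn and without T172 and T284 together, and its middle values (-1.68 to -1.31) lay with the Sprr2d-high side. It was the 1 called gene of 15 mesenchymal genes (0.966% of all genes tested were called lower), whose median was 0.43. Vim (0.43), Twist1 (0.83), Zeb1 (-0.07) and Snai2 (2.96) were not called. Smtn, a smooth muscle protein, differed by -1.36 ± 0.20 (limma adjusted p = 0.0107) and was the 1 called gene of 14 contraction genes, with Acta2 at -0.34 and Cnn1 at 2.08. Smtn was not called without T172 and T284 together (limma adjusted p = 0.18).

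**Figure D5:**
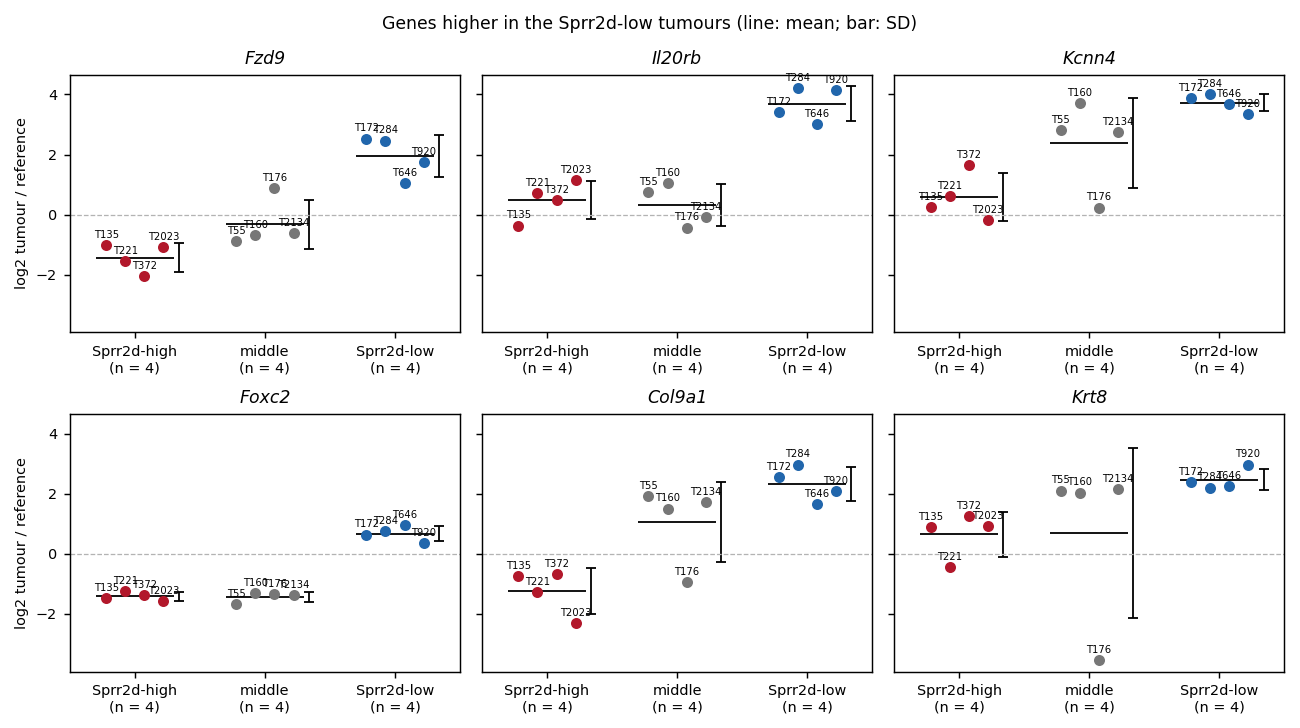
Log2 tumour over reference (vertical axis) of Fzd9, Il20rb, Kcnn4, Foxc2, Col9a1 and Krt8 in each tumour, grouped by side; points are tumours, lines means and bars SDs over 4 tumours. All 4 Sprr2d-low tumours lie above all 4 Sprr2d-high tumours, while the middle tumours sit near the high side for Foxc2 and near the low side for 3 of 4 tumours in Col9a1.

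Luminal epithelial genes gave 1 call in each direction among 20, Ltf higher and Krt8 lower, with a median of -0.16. The shares over all genes tested were 1.58% higher and 0.966% lower. Krt8, the keratin of simple epithelia, read 0.89, -0.45, 1.25 and 0.93 against 2.40, 2.21, 2.26 and 2.97 (difference -1.81 ± 0.36, limma adjusted p = 0.0331). The sides did not overlap, but the call was lost without T135, T172, T2023, T284 or T920 (adjusted p up to 0.0922). Its partner Krt18 differed by -0.98 and the tetraspanin Tspan8 by -3.12, both with sides that did not overlap and neither called. The hormone receptors Esr1 (0.22) and Pgr (-0.26), the luminal factors Gata3 (-0.51), Elf5 (-0.44) and Foxa1 (0.83), and Kit (-0.49) were not called. Without T172, without T284 or without both the list had 0 calls, and without T372 or T646 2 were lower. Limma called 0 of 17 milk genes (3 at an unadjusted p under 0.05), with a median of -0.20. Their mean was 2.08 in T221 and 2.56 in T372 but -0.28 in T135 and -0.24 in T2023, so the Sprr2d-high tumours were not alike in milk genes. Limma called 0 of 24 junction genes (8 at an unadjusted p under 0.05), with a median of -0.10. The closest was Epcam (-1.31 ± 0.33, limma adjusted p = 0.0787), with Cdh1 at 1.11 and Cldn7 at -1.23.

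Hair follicle genes had a median of 1.66 in 23 members, and limma called 0 of them, 12 having an unadjusted p under 0.05. The list mean was 2.51 in T372 and 1.07 in T2023 but -0.36 in T135 and -0.25 in T221, against -1.33 to -0.80 on the low side. Krt27, an inner root sheath keratin, read -0.36, -2.32, 4.60 and 1.83 against -4.25, -4.49, -2.67 and -3.66 (difference 4.71 ± 1.23, limma adjusted p = 0.085). In 7 members the sides did not overlap and the Sprr2d-high side was higher, a pattern found in 5.04% of all genes tested. Without T135 3 members were called, and without T221 2. Limma also called 0 of 10 sebaceous gland genes (median 0.00) and 0 of 10 melanocyte genes (median 0.01), with 3 genes in each at an unadjusted p under 0.05.

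Markers of other cell types gave few calls, and over all genes tested 1.58% were called higher and 0.966% lower. Limma called 0 of 16 macrophage genes (median 0.42), 0 of 13 endothelial genes (median -0.03), 0 of 11 adipocyte genes (median 0.48) and 0 of 16 skeletal muscle genes (median 0.28). At an unadjusted p under 0.05 these lists had 1, 1, 0 and 1 genes. The macrophage mean ran from 0.29 to 1.62 on the high side and from 0.19 to 1.95 on the low side. Of 15 lymphocyte genes, the cytotoxic protease Gzmb was called lower (-1.49 ± 0.32, limma adjusted p = 0.0432), and Cd3e (0.19) and Cd8a (-0.87) were not. The Gzmb call was lost without T135, T172, T2023, T221, T284 or T920 (adjusted p up to 0.14), and without T172 and T284 together. Of 25 fibroblast and matrix genes only Mmp9 was called (median 0.87). The matrix list mean was -0.04 in T646 against -2.47 to -2.22 in the other 3 Sprr2d-low tumours, and the mesenchymal mean -0.56 against -2.08 to -1.72. Without T646, 8 matrix genes and 3 mesenchymal genes were called higher. The part of matrix content in the larger counts without T646 was not tested.

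Limma called 0 of 15 interferon genes (median -0.51) and 0 of 25 proliferation genes (median -0.10), with 1 and 0 at an unadjusted p under 0.05. The proliferation mean was -1.84 in T646 and between -0.67 and 0.40 in the other 7 tumours. Limma called 0 of 23 SWI/SNF subunit genes (4 at an unadjusted p under 0.05), with a median of 0.16. Of all 16878 genes tested, 1535 higher and 1574 lower genes had such an unadjusted p. Smarca4, the gene that is heterozygous in these mice, read -0.24, -1.05, -0.30 and -0.87 against -0.92, -1.08, -0.48 and -0.44, and the sides overlapped (difference 0.12 ± 0.25, limma adjusted p = 0.852). Its 2 probes differed by 0.55 and -0.32, and the sign of their mean turned to -0.01 without T135. Smarca2, the alternative ATPase Brm, differed by 0.18 ± 0.24 (limma adjusted p = 0.755), and the widest difference of the list was that of Arid1b (0.85 ± 0.24, limma adjusted p = 0.113). The array does not tell the working allele from the other.

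The Sprr2d-high tumours were not uniform. Of the 266 higher genes, T221 was the highest of the 4 for 122 and T135 the lowest for 107. Correlations across genes between pairs of Sprr2d-high tumours, after each gene's mean was removed, ran from 0.001 to 0.389. On the low side, T646 was the highest of the 4 for 134 of these genes, and pairs ran from -0.113 to 0.626. Pairs of 1 high and 1 low tumour ran from -0.494 to -0.067.

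The 4 middle tumours, which had no part in choosing the genes, were placed on a scale from 0 (the mean of the Sprr2d-low tumours) to 1 (the mean of the Sprr2d-high tumours). Over the 223 higher genes outside the 3 cornification lists, the median position was 0.36 in T55, 0.33 in T160, 0.11 in T176 (222 genes) and 0.47 in T2134. Sprr2d itself stood at 0.25, 0.38, 0.48 and 0.78. Over the 163 lower genes, medians were 0.64, 0.52, 1.0 and 0.71, so these tumours lay nearer the high side in the genes that are lower there than in the genes that are higher there. T176 reached the range of the Sprr2d-low side for 128 of its 222 higher genes and the range of the Sprr2d-high side for 100 of its 162 lower genes. It also stood apart in epithelial genes, with Krt8 at -3.53, Epcam at -4.09 and a luminal list mean of -1.37, against 0.83 to 1.24 in the other middle tumours.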

How the data were processed

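Tumour RNA of 12 Brg1+/- tumours was hybridised on 14 two-colour arrays against a mouse reference, with tumour in Cy5 and reference in Cy3 per the labels. The deposited table holds log2 ratios; base 2 was inferred from the range (-9.19 to 7.42), and the scanner, background correction and normalization were not given in the sources used here. Of all values 0.172% were missing. Signal is not part of the table, so the number of arrays limits the precision. Of 22575 probes, 18658 had 1 gene symbol in the platform annotation, updated through RefSeq (GRCm38.p6) for 18445 by gene identifier and 24 by accession; probes of a gene were averaged, giving 16879 genes, 1254 with more than 1 probe.

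Genes needed values in 3 of 4 tumours per side. The sides were compared with limma 3.58.1 (R 4.3.3; lmFit, eBayes, two-sided) over 16878 genes, with Benjamini-Hochberg adjustment and an adjusted p under 0.05; the prior had 3.50 degrees of freedom. Data were simulated for 16878 genes as independent normal values with spreads drawn from limma's fitted prior. In them limma called 68% of 100 genes with a true difference of 1.5, 95% of 100 with a difference of 3 and 13 of 16678 unchanged genes. The simulation had no tumours as alike as T172 and T284 and no sides chosen on a gene. Its shares are therefore not error rates of the comparison. Members, lists (33, with 635 genes measured) and comparisons were chosen with earlier results of these data known. Named genes are Sprr2d, Trp63, Krt14, Smarca4, Smarca2, the 15 largest called differences in each direction without overlap, and up to 4 called members of each list, or its extremes where none was called; others are list members, neighbours, or chosen after their values were seen. Cornified envelope, suprabasal keratin and cornified layer protease genes entered the fit and its counts, but no p-value is given for them. Alternatives were single arrays, 12 tumours, a continuous Sprr2d, quantile normalization, 1 probe per gene, complete genes, a robust prior, a stricter threshold and leaving out tumours. Python 3.11.15, pandas 2.3.3 and matplotlib 3.10.9 were used.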

Additional observations from a re-analysis of the deposited data

Results flagged for a closer look

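In 195 groups of 4 tumours, 14 had 1 tumour far from the other 3 by Dixon's criterion. For values that were not selected, chance gives about 1 in 20. Sprr2d chose the sides, and many of the other genes were picked on differences in these tumours. That rate therefore does not apply to them, and the flags are descriptions. On the Sprr2d-low side, T920 stood apart in Trp63 (1.89, others -3.15 to -2.63), Trim29 (0.91, others -2.92 to -2.80), Trf (-0.96, others 1.20 to 1.46) and Myl1 (-6.23, others -3.81 to -3.42). T646 stood apart in Sprr2d (-2.36), Rptn (-2.15), S100a9 (-2.86, others -6.31 to -5.91), Epgn (0.65, others -1.18 to -0.87) and Cdc20 (-2.08, others -0.61 to -0.32), and T284 in Asprv1 (-4.54). On the Sprr2d-high side, T372 stood apart in Dsg3 (0.56, others 1.94 to 2.05) and Folr1 (0.69, others -2.01 to -1.65), T135 in Ovol1 (1.05) and T221 in Errfi1 (-0.62).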

How the results depend on the processing

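Leaving out 1 tumour moved the higher count between 105 and 609 and the lower count between 22 and 445. An adjusted p under 0.01 left 86 higher and 15 lower genes, and leaving out T172 and T284 together, an alternative chosen after seeing the data, left 53 and 4. With the middle tumours as a group of their own, 261 genes were called lower. The other counts stayed within 1.5 times. With Sprr2d as a continuous covariate, where a value is a slope per log2 unit, 255 and 122 genes were called, 189 and 72 of them among those of the main comparison. Of 69 named called genes, 37 kept their call under all alternatives run for single genes but the joint removal of T172 and T284, and 26 under that one too. Differences that changed sign belonged to uncalled genes: Acta1 (0.04 on first arrays, -0.18 to 0.07 without single tumours), Isg15 (0.04, and -0.52 to 0.59), Pparg (-0.18 after quantile normalization, -0.12 to 0.28 without single tumours) and Smarca4 (-0.01 to 0.26 without single tumours, -0.15 without T172 and T284). The cause was not tested. No paired analysis was possible because second arrays exist only for T172 and T284, both on the same side, and replicate numbers link no tumours across sides. With 4 tumours a side, smaller differences may be missed, and signal over background, which would show dim probes, is not part of the table.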
